A study of Homo sapiens with 6 samples.

Results

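A pair of HEK293T cell lines, each labelled as a knockout of THUMPD2, was compared directly with each other. HEK293T is an established human embryonic kidney line, and the lines were the independent knockouts labelled THUMPD2 KO#1 and THUMPD2 KO#2, called KO1 and KO2 here. The comparison rested on 4 of the 6 libraries of the study, 2 per knockout line, and the 2 wild-type (WT) HEK293T libraries served to show which line stood apart from the parental genotype and entered the fit that estimates the spread. No other allele or treatment is given, and each of the labels WT, KO1 and KO2 stood for 1 line. Whether the libraries of a line came from separate cultures is not stated. A second knockout line can show what is reproducible. Rows that differ between the lines include some that moved the same way from WT in both, by different amounts.

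THUMPD2 is a methyltransferase that, with its activating partner TRMT112, places a methyl group on a guanosine of U6 small nuclear RNA. U6 forms the catalytic centre of the spliceosome together with U2, and its modified bases lie close to the site where the 5′ splice site is recognised and cut. The lines are labelled as lacking the same enzyme. Effects of the line and of the knockout within a line cannot be told apart, since each knockout label stood for 1 line.

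Library totals ran from 7414339 to 8391143 counts, with 7539788 and 7414339 in KO1 and 7926552 and 8391143 in KO2. Between the libraries of a line, the chi-square divided by its degrees of freedom was 3.62 in KO1 and 2.19 in KO2, above the value of 1 that counting alone gives. A principal component analysis set WT apart from the knockouts on its leading axis (44.7%) and KO1 apart from KO2 on the next (28.2%). The THUMPD2 row held 3 and 0 reads in KO1, 0 and 1 in KO2 and 1 and 2 in WT. These are too few to test, so the target gene does not check the genotype labels.

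Each row of the count table carries a gene symbol, but the reads in it lay mostly on the strand opposite to that gene. The GAPDH row held 202 and 181 reads in KO1 and 198 and 154 in KO2. AC006064.4, an antisense row over 422 exonic bases of GAPDH, held 136359 and 142186 in KO1 and 122213 and 126941 in KO2. Rows are therefore named with the gene annotated across from them, as "AC006064.4 over GAPDH", when at least 100 exonic bases are shared and that gene accounts for 80% or more of what the row shares with the other strand. A row covers only the stretch that both annotations share. Each value belongs to the row, and whether the gene changed is not claimed.

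Of 14184 rows tested, 2889 (20.4%) differed between KO1 and KO2 at an adjusted p under 0.05 by edgeR's quasi-likelihood test. KO1 was higher in 1429 (10.1%) and lower in 1460 (10.3%). Differences of at least 2-fold were less balanced, with 224 rows higher in KO1 (1.58%) and 571 lower (4.03%), together 5.6% of the tested rows, and those of at least 4-fold were 45 against 201. Most called rows differed less, and the median size was 0.65 on the log2 scale, with 1256 rows under 1.5-fold. The share called rose with depth, from 7.61% of 7714 rows with a mean count under 50 to 50.3% of 2152 rows with a mean count of 500 or more. The 4 CPM values (counts scaled to the library total) separated the lines in 2883 of the 2889 called rows. These rows were called on the same libraries, so the separation follows largely from the choice and is no separate support. The called rows lay over 657 opposite-strand protein-coding genes in the higher set and 545 in the lower set, of 3349 such genes with a tested row. Some settings gave over 1.5 times fewer calls: 1737 with DESeq2 (1713 of them among the 2889), 1626 after each 10 Mb bin was set to its own median, and 1545 when the difference had to exceed 1.2-fold. The call was kept without any 1 of the 6 libraries in 1427 rows, 700 higher in KO1 and 727 lower. In the plot of row levels the strongest departures are from the row over NEFM and from rows near 0 in one line.

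**Figure D1:**
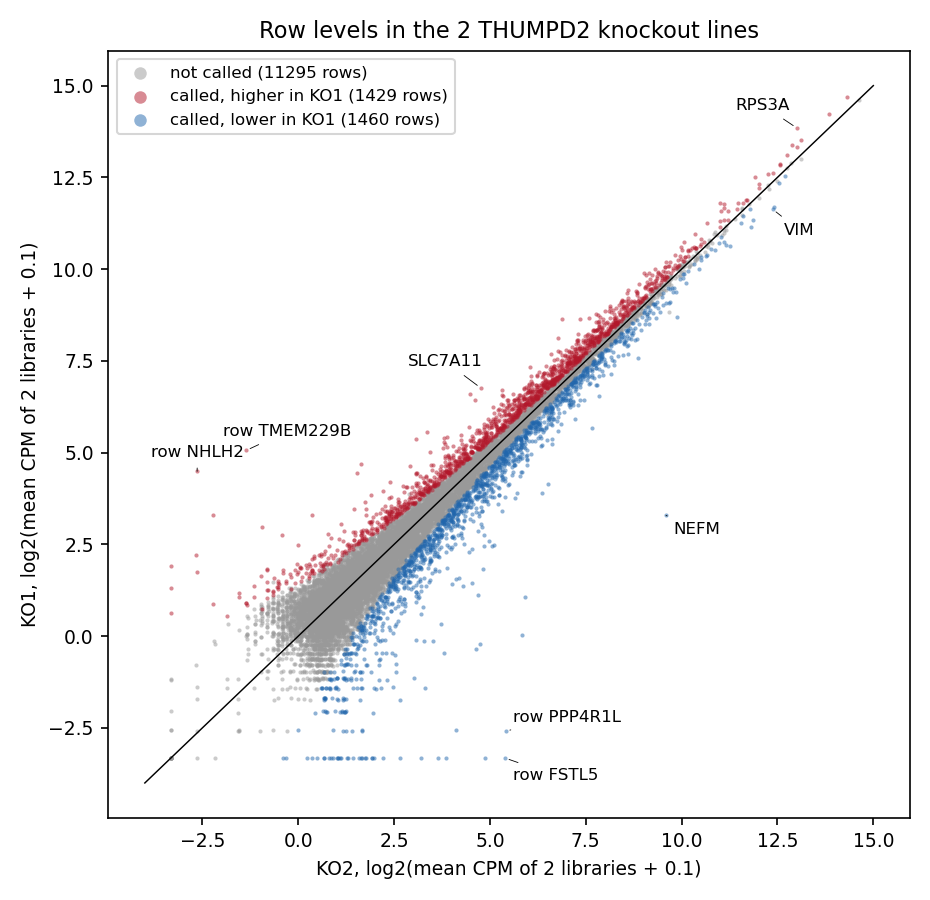
Level of each tested row in KO2 (horizontal axis) and KO1 (vertical axis), as log2 of the mean CPM of 2 libraries plus 0.1. Red points are the 1429 rows called higher in KO1, blue the 1460 called lower, grey the rows not called, and the black line marks equal levels. The row over NEFM and the row FSTL5 lie far below the line.

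Differences below are log2 values of KO1 minus KO2 ± SE with n = 2 libraries against 2, so a negative value is lower in KO1. The SE was derived from the F statistic of the fit, whose spread was estimated over all 6 libraries. It is not the spread of the 4 knockout values of that row alone. A pair of neighbouring rows on chromosome X had almost no reads in KO1. PUDP (a phosphatase of pseudouridine 5′-phosphate, chromosome X, 7048920 to 7148190, minus strand) had 0 and 0 reads in KO1, 78 and 75 in KO2 and 40 and 63 in WT. It was at least 44.0-fold lower in KO1. STS (steroid sulfatase, 7219456 to 7354810, plus strand) had 0 and 1 reads in KO1, 142 and 147 in KO2 and 195 and 190 in WT. Neither row has an assigned gene on the other strand. PNPLA4, a lipase-family gene at 7898247, followed with 3 and 2 reads in KO1 and 17 and 20 in KO2, but only 0 and 1 in WT. TBL1X, the next row of any depth at 9463295, held 22 and 16 reads in KO1 and 17 and 13 in KO2. PUDP passed against WT in KO1 alone, STS was lower than WT in both lines (−0.55 in KO2), and PNPLA4 passed in KO2 alone. The PNPLA4 call (adjusted p = 0.0116) was lost when any 1 of the 4 knockout libraries was left out.

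The 250 bases before the RefSeq start sites of PUDP and STS are shown because both rows lost their reads in the same line. The same stretch is shown for VIM, which lies under abundant rows that were lower in KO1. All are GRCh38.p14 sequences, written 5′ to 3′ on the gene's strand: PUDP at chrX:7148154-7148403 on the minus strand, STS at chrX:7219206-7219455 on the plus strand, where RefSeq gives 5 starts, and VIM at chr10:17227991-17228240 on the plus strand. Capitals mark matches to GGGCGG (the GC box) on either strand, and no match to TATAAA or CCAAT was found in these windows.
PUDP: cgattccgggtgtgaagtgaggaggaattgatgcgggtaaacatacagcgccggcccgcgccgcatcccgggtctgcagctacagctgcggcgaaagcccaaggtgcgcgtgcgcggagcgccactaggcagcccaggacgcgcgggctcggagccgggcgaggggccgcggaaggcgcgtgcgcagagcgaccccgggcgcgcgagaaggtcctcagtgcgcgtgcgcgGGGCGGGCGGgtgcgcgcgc
STS: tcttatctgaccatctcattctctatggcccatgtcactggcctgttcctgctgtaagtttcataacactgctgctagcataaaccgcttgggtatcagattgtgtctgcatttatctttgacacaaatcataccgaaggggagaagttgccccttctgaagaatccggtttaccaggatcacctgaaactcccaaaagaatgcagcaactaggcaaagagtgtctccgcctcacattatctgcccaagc
VIM: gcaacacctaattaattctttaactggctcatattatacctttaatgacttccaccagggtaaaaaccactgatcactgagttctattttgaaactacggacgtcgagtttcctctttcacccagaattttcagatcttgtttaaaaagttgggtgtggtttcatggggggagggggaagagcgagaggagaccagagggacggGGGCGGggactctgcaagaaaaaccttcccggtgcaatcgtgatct
The PUDP window holds 2 overlapping GGGCGG matches, the VIM window 1 and the STS window none. Among 35116 RefSeq promoter windows of this length, 42.6% hold GGGCGG, 10.7% TATAAA and 32.0% CCAAT.

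Several rows for intermediate filament genes, which encode the rope-like polymers of the cytoskeleton, were lower in KO1. These genes were grouped after their values were seen and are not one of the lists. The NEFH row (25 and 10 reads in KO1, 20 and 17 in KO2) and the KRT19 row (12 and 13, 18 and 9) overlapped between the lines. AF106564.1 (chromosome 8, 24912165 to 24914717, minus strand) lies over 1706 exonic bases of NEFM, the medium neurofilament subunit. It held 74 and 67 reads in KO1, 6469 and 6574 in KO2 and 719 and 772 in WT. The lines did not overlap and stood on either side of WT, at −6.32 ± 0.09 (adjusted p = 1.41e-34), a 79.6-fold difference. The NEFM row itself, on the other strand, moved the same way, with 7 and 3 reads in KO1, 229 and 186 in KO2 and 37 and 23 in WT. INA, which encodes alpha-internexin and has no assigned opposite gene, had 9 and 3 reads in KO1, 80 and 83 in KO2 and 42 and 43 in WT, at −3.53 ± 0.38. NEFL, the light neurofilament subunit, had 24 and 15 reads in its own row in KO1 and 55 and 70 in KO2, against 9 and 12 in WT. That row was called (adjusted p = 0.00133), but AC107373.2, the row over NEFL, was at −0.91 ± 0.41 with an adjusted p of 0.116.

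Vimentin, the filament protein of mesenchymal cells, is covered by a pair of rows on chromosome 10. AL133415.1 over VIM held 22547 and 23532 reads in KO1, 44299 and 45487 in KO2 and 25115 and 27017 in WT, at −0.75 ± 0.05. VIM-AS1 over VIM was at −0.71 ± 0.05, and the VIM row itself at −0.95 ± 0.10 with 296 and 313 reads in KO1 and 678 and 692 in KO2. KO1 lay near WT in all 3 rows and KO2 above it. The 16 other rows within 5 Mb had a median of −0.68, close to the VIM rows. With each 10 Mb bin set to its own median the VIM rows were at −0.13 (adjusted p = 0.0576) and −0.10 (adjusted p = 0.19), and neither was called. Keratins of simple epithelia differed in the same direction. KRT8 over KRT18 held 2560 and 2740 reads in KO1, 4600 and 4914 in KO2 and 3416 and 3680 in WT, at −0.63 ± 0.06. KRT18 over KRT8 was at −1.13 ± 0.19, and here the 100 neighbouring rows had a median of −0.015. Both keratin rows kept their calls with the bin offset (−0.63 and −1.13).

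**Figure D2:**
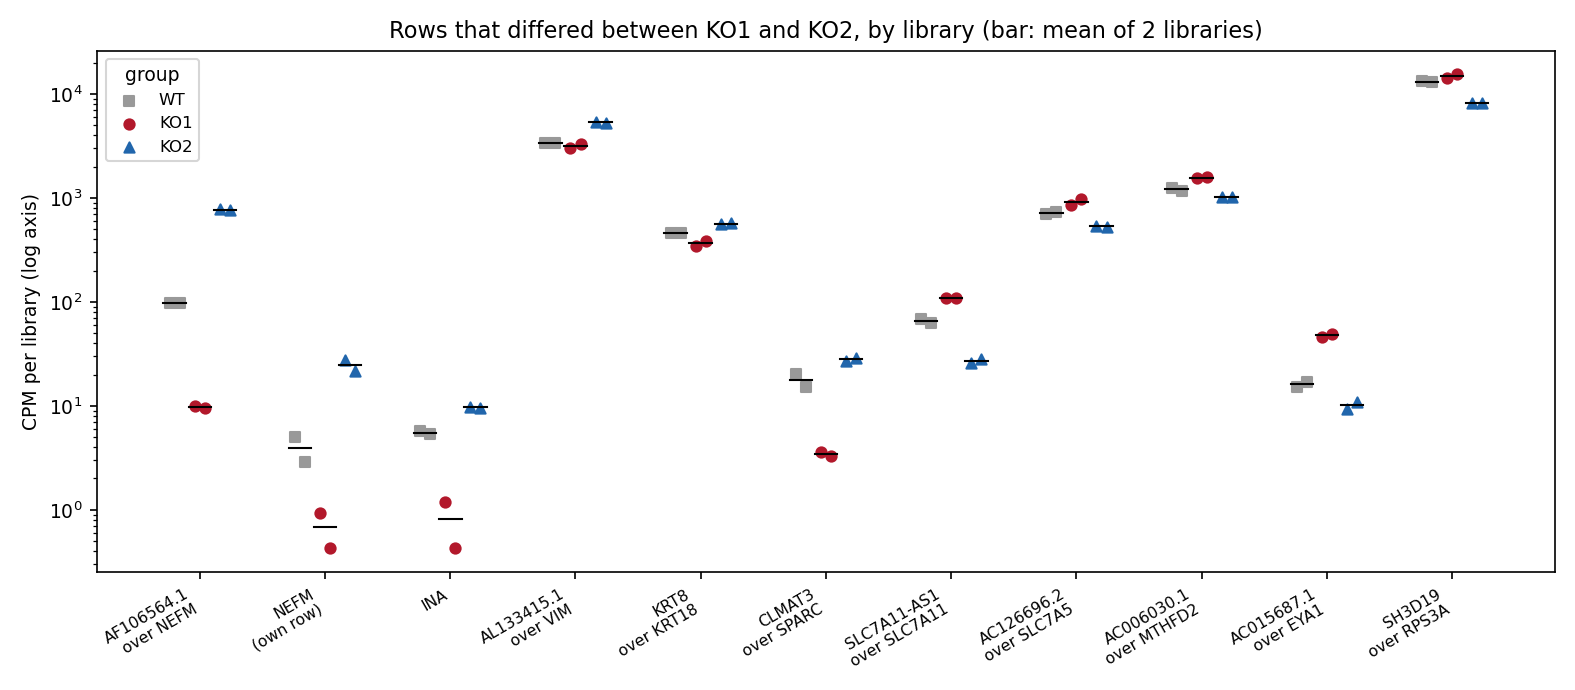
CPM of each library on a log axis for 11 rows, with WT as grey squares, KO1 as red circles, KO2 as blue triangles and a black bar at the mean of 2 libraries. KO1 sits lowest in the rows over NEFM and SPARC and highest in those over SLC7A11 and EYA1. The libraries of a line lie close together in most rows. They are further apart in KO1 for the NEFM row itself (7 and 3 reads) and INA (9 and 3 reads).

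Genes of the extracellular matrix and its receptors differed in both directions. CLMAT3 over SPARC, a secreted matrix glycoprotein, held 27 and 23 reads in KO1, 224 and 249 in KO2 and 150 and 122 in WT, at −3.02 ± 0.22 (adjusted p = 4.05e-13). ACTA2-AS1 over ACTA2, smooth muscle actin, was at −1.72 ± 0.19 with 54 and 66 reads in KO1 and 229 and 230 in KO2, and FAS, a second row over ACTA2, was at −1.34 ± 0.18. The integrin subunits ITGAV and ITGA6 were lower through AC017101.1 (−0.37) and AC078883.2 (−0.91). ITGA6-AS1, a second row over ITGA6, did not pass (−0.295, adjusted p = 0.438), nor did AC025180.1 over ITGA1 (−0.113, adjusted p = 0.801). Both integrin calls were lost without KO2 replicate 2 (adjusted p = 0.0922 and 0.0973), and that over ITGA6 also without KO1 replicate 2 (0.0966). Some rows over basement membrane genes were higher in KO1. RTRAF over NID2, a nidogen, held 586 and 516 reads in KO1, 281 and 284 in KO2 and 688 and 899 in WT, at 1.18 ± 0.10, where 26 neighbouring rows had a median of 0.48. SLC19A1 over COL18A1, a basement membrane collagen, was at 0.75 ± 0.06 and AC005046.1 over LAMB1, a laminin chain, at 0.95 ± 0.27. The LAMB1 call was lost without KO1 replicate 1 (adjusted p = 0.134), with DESeq2, and with the bin offset (0.48, adjusted p = 0.247). These 3 rows were below WT in both lines and further below in KO2. For other laminin genes, LAMA5-AS1 over LAMA5 (−0.28, adjusted p = 0.154) and AP005062.1 over LAMA1 (0.26, adjusted p = 0.422) did not pass. AP002409.1, a second row over LAMA1, was called higher in KO1 (0.46, adjusted p = 0.0139) and was below WT in both lines. The COL18A1 row itself was lower in KO1 (−0.24, adjusted p = 0.0265). VCAN-AS1 over VCAN, the proteoglycan versican, stood at 1209 and 1148 reads in KO1, 540 and 565 in KO2 and 417 and 392 in WT. In the list of mesenchymal regulators and matrix, 5 of 20 opposite-strand rows were higher in KO1 and 7 lower, with a median of −0.20.

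For this and the other gene lists, the background is the set of 3767 rows over 1 opposite-strand protein-coding gene. Of these, 33.9% were called (699 higher in KO1 and 577 lower), with a median of −0.0094. List counts below are counts of such rows unless given by row name, and a gene under several rows is counted once per row. For counts by row name, the background is the 20.4% called over all 14184 tested rows.

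Rows at or near 0 in one line were mostly rows without reads in KO1. With at least 20 reads in each library of the other line, 12 rows had no reads in KO1 and 0 had none in KO2. Allowing up to 3 reads over both libraries gave 20 against 4 rows. The row FSTL5, named for a secreted follistatin-like protein and lying over the RNA AC104793.1, had 0 and 0 reads in KO1, 362 and 347 in KO2 and 2 and 0 in WT, at least 204-fold lower in KO1. On chromosome 20, PPP4R1L had 1 and 0 reads in KO1, 344 and 375 in KO2 and 1 and 1 in WT. ANKRD60, the next row beside it, had 0 and 0, 49 and 56, and 0 and 0. Both rows were at or near 0 in WT too, so KO2 was the line apart. GNAS-AS1 (58818919 to 58850903) had 4 and 5 reads in KO1, 93 and 140 in KO2 and 15 and 12 in WT. The GNAS row, which overlaps GNAS-AS1 on the other strand of this imprinted locus, did not pass (0.20 ± 0.11, adjusted p = 0.217). Among the rows between PPP4R1L and GNAS-AS1, RAB22A and VAPB held 5 to 17 reads in every library. APCDD1L held 3 and 46 reads in KO1, 2 and 5 in KO2 and 9 and 5 in WT.

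Some rows over protein-coding genes were also far lower in KO1. OXCT1-AS1 over OXCT1, an enzyme of ketone body use, held 1 and 12 reads in KO1, 449 and 524 in KO2 and 158 and 168 in WT, at −5.98 ± 0.27. BDNF-AS over BDNF, a neurotrophin, held 2 and 2 reads in KO1, 31 and 34 in KO2 and 0 and 1 in WT. AC007193.2 over HIF3A, a hypoxia-inducible factor subunit, held 0 and 0, 19 and 32, and 0 and 0. The row across from KCNV1, which encodes a modifier of potassium channels (AC027451.1), held 16 and 5 reads in KO1, 75 and 79 in KO2 and none in WT. In contrast, AC091152.2 over MEIOC, a meiosis factor, was high in WT (63 and 47 reads), lower in KO2 (23 and 29) and at 0 in KO1. AC009163.1 over CHST6, a keratan sulfate sulfotransferase, had 3 and 0 reads in KO1, 46 and 58 in KO2 and 87 and 104 in WT. ATP8B4 over SLC27A2, a fatty acid transporter, held 121 and 135 reads in KO1, 824 and 709 in KO2 and 465 and 495 in WT, at −2.37 ± 0.12. C1orf147 over IKBKE, an innate immune kinase, held 7 and 5, 93 and 97, and 38 and 47.

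Several rows named for developmental transcription factors were higher in KO1. NHLH2, a helix-loop-helix factor of neurons (chromosome 1, 115836377 to 115843917), had 172 and 154 reads in KO1, 1 and 0 in KO2 and none in WT. UNCX, a homeobox factor of the somites, had 208 and 169 in KO1, 24 and 27 in KO2 and 36 and 36 in WT, at 3.09 ± 0.23. EN1, a homeobox factor of midbrain and limb, had 32 and 19 reads in KO1 and 4 and 4 in KO2, below the 45 and 63 in WT. Through the opposite strand, AC015687.1 over EYA1, a transcriptional coactivator and phosphatase of ear and kidney development, held 345 and 346 reads in KO1, 76 and 95 in KO2 and 113 and 136 in WT, at 2.23 ± 0.16 (adjusted p = 1.26e-13). AC091588.3 over GATA6, an endoderm factor, held 2140 and 2104 reads in KO1, 1696 and 1871 in KO2 and 650 and 697 in WT, so it rose from WT in both lines and further in KO1. HHIP-AS1 over HHIP, a hedgehog antagonist, rose in both lines as well, with 257 and 288 reads in KO1, 112 and 126 in KO2 and 30 and 27 in WT.

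Read through the opposite strand, the list of HOX and patterning factors had 8 of 18 rows higher in KO1 and 1 lower (ELP4 over PAX6, −0.32), with a median of 0.20. Read by row name, 11 of 64 rows were higher and 3 lower, a share of 21.9% beside 20.4% of all tested rows. HOX genes set position along the body axis. HOXC13-AS over HOXC13 held 493 and 481 reads in KO1, 281 and 300 in KO2 and 419 and 505 in WT, at 0.96 ± 0.10, and HOXB-AS1 over HOXB3 was at 0.67 ± 0.07. By row name, HOXC11 (2.07 ± 0.33) and HOXC9 (1.36 ± 0.21) were higher in KO1, both on chromosome 12, where the median of all rows was −0.031. HOXA10 (0.80) and HOXA11 (0.87) were higher too, but their 10 Mb bin on chromosome 7 had a median of 0.44. HOXA11-AS, the row over HOXA11, held 2365 and 2310 reads in KO1 and 2742 and 2898 in KO2. It did not pass (−0.056, adjusted p = 0.606). GATA2 (−0.87) and LBX2 (−1.10) were lower in KO1, and the bin of GATA2 on chromosome 3 had a median of −0.62.

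Other strong rows higher in KO1 belonged to no common list. TMEM229B, a membrane protein, kept its WT level in KO1 (232 and 252 reads, with 165 and 239 in WT) and fell to 1 and 4 in KO2, a 107-fold difference. SSC4D over ZP3, an egg coat glycoprotein, was below WT (107 and 97 reads) in both lines, at 16 and 37 in KO1 and none in KO2. AC004846.2 over PAPLN, a matrix protein, had 65 and 76 reads in KO1 and 0 and 2 in KO2. AC132938.4 over TEX19, a germ cell protein, held 316 and 284 reads in KO1, 75 and 65 in KO2 and 115 and 141 in WT, at 2.31 ± 0.17. AC073333.1 over BZW2, a regulator of translation initiation, held 2842 and 2928 in KO1, 957 and 1031 in KO2 and 2870 and 3200 in WT, so KO2 alone stood apart. AC023194.3 over ATP6V0D2, a proton pump subunit, held 115 and 92 reads in KO1, 30 and 31 in KO2 and none in WT. DNAJC30 over BUD23 was called at 3.01 ± 0.51, but its KO1 libraries held 18 and 121 reads, and without the second of them it was at 1.01 (adjusted p = 0.194).

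In the list of ATF4 and endoplasmic reticulum stress genes, which include genes of amino acid supply and one-carbon metabolism, 7 of 12 opposite-strand rows were higher in KO1 and 3 lower, with a median of 0.44. Read by row name, 5 of 29 rows were higher and 0 lower, a share of 17.2% beside 20.4% of all tested rows. ATF4 is a transcription factor of the stress response. SLC7A11-AS1 lies over 865 exonic bases of SLC7A11, the cystine-glutamate antiporter that feeds glutathione synthesis (chromosome 4, 138164097 to 138242349). It held 819 and 763 reads in KO1, 210 and 246 in KO2 and 502 and 504 in WT, at 2.01 ± 0.10 (adjusted p = 6.56e-18). The lines lay on either side of WT. Its 6 neighbouring rows within 5 Mb had a median of 0.54. AC126696.2 over SLC7A5, a transporter of large neutral amino acids, held 6448 and 6919 reads in KO1, 4423 and 4580 in KO2 and 5192 and 5835 in WT, at 0.79 ± 0.06, where 50 neighbours had a median of −0.018. AC006030.1 over MTHFD2, a mitochondrial folate enzyme, was at 0.62 ± 0.05, and CEBPB-AS1 over CEBPB, a stress-responsive transcription factor, at 0.62 ± 0.07. AC137834.2 over SHMT2, which supplies one-carbon units from serine, and DDIT4-AS1 over DDIT4, an inhibitor of mTORC1, were above WT in both lines and higher in KO1, at 0.47 and 0.43. The lower ones were the chaperones HSP90B1 through C12orf73 (−0.35) and CALR through AC092069.1 (−0.25), and EDEM1 (−0.26), which works in disposal of misfolded proteins. The CALR call was lost without KO2 replicate 2 (adjusted p = 0.0513).

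Among translation genes, SH3D19 over 262 exonic bases of RPS3A, a small-subunit ribosomal protein, was an abundant row that differed. It held 105743 and 108623 reads in KO1, 67367 and 71170 in KO2 and 99028 and 103017 in WT, at 0.85 ± 0.04. Of 16 rows over cytosolic ribosomal proteins, 7 were higher in KO1 and 4 lower, with a median of 0.18. PIDD1 over RPLP2 was the lowest of them at −2.48 ± 0.17, with 101 and 115 reads in KO1 and 515 and 888 in KO2. AC245140.2 over RPL10 was at −0.17 in a stretch of chromosome X whose 24 neighbouring rows had a median of −0.68. Set against its bin the row reversed to 0.41, and without KO2 replicate 2 it was not called (adjusted p = 0.143). Ribosomal protein genes have many near-identical pseudogenes, and their counts are uncertain. Of 22 rows over mitochondrial ribosomal proteins, 11 were higher in KO1 and 0 lower, with a median of 0.21 and values up to 0.56 (ABRAXAS1 over MRPS18C, 7 neighbours at 0.57). Read by row name, 2 of 44 rows were higher and 3 lower (11.4%, beside 20.4% of all tested rows), with a median of −0.12. NR2C2 over MRPS25 was counted among the higher rows (0.15), while the MRPS25 row itself was lower (−0.345). KO1 was also higher in the abundant rows over GAPDH (0.38 ± 0.04), TUBA1B (AC011603.2, 0.38 ± 0.04) and EIF5A (GPS2, 0.34 ± 0.04), genes that also have close copies. AC097460.1 over the histone variant H2AFZ was at 0.79 ± 0.05 beside 8 neighbours at 0.81.

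Rows over splicing genes, the machinery around the target of THUMPD2, are given by list, each to be read against the 33.9% called in the background. Of 8 rows over U6 and tri-snRNP proteins, 1 was higher in KO1 and 2 lower. AC245052.4 over PRPF31, a tri-snRNP protein, held 10694 and 10411 reads in KO1, 9316 and 10025 in KO2 and 9823 and 10358 in WT, at 0.34 ± 0.05. METTL5 over SSB, the La protein that binds the U6 tail, was at −0.29 ± 0.06. For the major spliceosome the counts were 3 higher and 1 lower of 9, led by PTCD1 over BUD31 at 0.66 ± 0.06, where 47 neighbours had a median of 0.49, and against its bin it was at 0.11 and not called. For the minor spliceosome they were 1 and 0 of 6, for SR proteins, hnRNPs and splicing kinases 5 and 2 of 23, and for nonsense-mediated decay 1 and 1 of 4. MFSD11 over SRSF2, an SR protein, held 45603 and 43659 reads in KO1 and 40405 and 42154 in KO2, at 0.33 ± 0.04, and it was not called with the bin offset (0.10, adjusted p = 0.117). Also uncalled with the bin offset were SLIRP over SNW1 and CABP7 over ZMAT5, and the call of HIGD1B over EFTUD2 was lost when any 1 of the 4 knockout libraries was left out. TRMT112 partners and THUMP-domain proteins had 2 higher and 1 lower of 8. All 3 calls were lost when 1 library was left out. These were DNAJC30 over BUD23 (given above), AC026191.1 over THUMPD3 (0.14, adjusted p = 0.363, without KO1 replicate 2) and STX1A. STX1A, a second row over BUD23 and the lower one, was at −0.41 (adjusted p = 0.548) without KO2 replicate 2. TRMT112 read through ESRRA did not pass (−0.059 ± 0.079, adjusted p = 0.679). The TRMT112 row, over ESRRA, was at 0.43 ± 0.08.

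The other lists also held called rows in both directions or few in all. Rows over the list labelled p53 targets, which also holds CDKN2A, a gene of the p53 pathway, had 0 higher and 4 lower of 7, with a median of −0.28. Read by row name, 0 of 23 rows were higher and 1 lower (4.35%, beside 20.4% of all tested rows). The lower opposite-strand rows include DINOL over CDKN1A, a cell cycle inhibitor, with 13 and 13 reads in KO1, 62 and 53 in KO2 and 2 and 5 in WT. CDKN2B-AS1 over CDKN2A was at −0.29 ± 0.05, and AC025423.4 over MDM2 did not pass (0.139, adjusted p = 0.16). Interferon and MHC class I genes had 0 higher and 3 lower of 9, led by AL671883.2 over HLA-B (−0.50 ± 0.06), which was below WT in both lines. Rows over cadherins, protocadherins and junctions had 0 higher and 3 lower of 9, and these were C10orf105 over CDH23 (−1.55 ± 0.27) and both rows over DCHS1. Of these, AC091564.4 over DCHS1 lost its call without KO1 replicate 2 (adjusted p = 0.101), without KO2 replicate 2 (0.226), with the bin offset (0.0514) and with DESeq2. DNA replication genes had 0 higher and 3 lower of 11, with AC023593.1 over MCM2, a subunit of the replicative helicase, at −0.62 ± 0.05 beside 22 neighbours at −0.69 and −0.088 against its bin, where it was not called. Heat shock and chaperones had 1 higher and 3 lower of 6, and the neuronal list 2 and 3 of 11, with STAG2 over TENM1, a teneurin, at −1.14 ± 0.10.

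The remaining counts, higher and lower in KO1, were 2 and 3 of 19 for the nuclear-encoded respiratory chain and 3 and 3 of 12 for sterol and fatty acid synthesis. They were 2 and 0 of 6 for glycolysis, 2 and 0 of 3 for mitosis, 3 and 2 of 10 for Wnt signalling and 2 and 0 of 8 for TGF-beta and BMP signalling. Retinoic acid genes had 2 and 1 of 6, where AC015712.2 over ALDH1A3, which makes retinoic acid, fell from 469 and 519 reads in WT to 44 and 40 in KO2 and 19 and 10 in KO1. Selenoproteins had 0 and 1 of 4, imprinted genes 0 and 1 of 7, inherited retinal dystrophy genes 2 and 3 of 13, and kidney and epithelial markers 0 and 2 of 6. Blood, endothelial and fibroblast markers had 0 and 2 of 3, both lower rows being those over ACTA2. Replication-dependent histones had 0 and 0 of 3, cancer-testis antigens 0 and 0 of 1, and no row over a metallothionein was tested. By row name, the mitochondrial genome had 1 higher and 2 lower of 14 (21.4%, beside 20.4% of all tested rows). MT-ND5 was at 0.21 ± 0.05 and MT-CO3 at −0.26 ± 0.06, both below WT in each line.

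**Figure D3:**
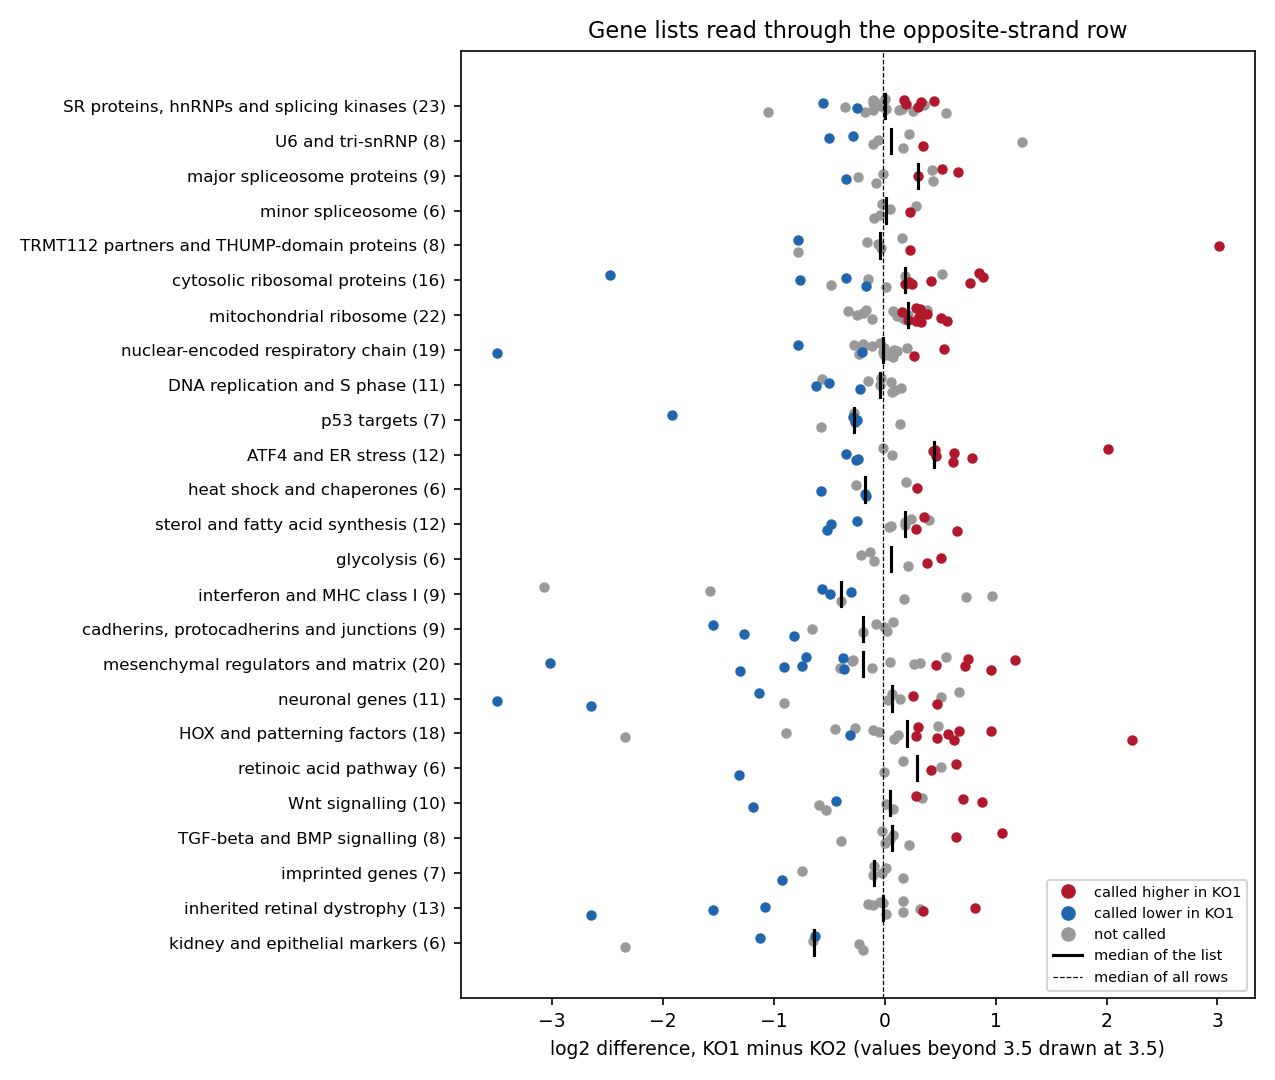
Log2 difference KO1 minus KO2 of every opposite-strand row, for each gene list with at least 6 such rows (number in parentheses). Red points were called higher in KO1, blue lower and grey neither, thick bars are list medians and the dashed line is the median of all rows (−0.017). The ATF4 list has its median farthest to the right.

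The summed level of 6 neuronal markers was 908 to 963 CPM in KO2, 92.3 to 111 in KO1 and 115 to 117 in WT, and most of the KO2 level came from the row over NEFM. In KO1 the row NCAM1-AS1 over NCAM1, a neural adhesion molecule, was the deepest, with 563 and 457 reads (608 and 522 in KO2, 29 and 23 in WT). Kidney and epithelial markers summed to 454 to 489 CPM in KO1, 706 to 724 in KO2 and 554 to 558 in WT, each row counted once, mostly from the keratin rows, and UMOD had no reads in any library. The 15 markers of other cell types summed to between 22.0 and 44.4. In bulk RNA, fewer cells with a gene and less RNA per cell cannot be told apart.

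Set against WT, the called rows divided by which line had moved. Both contrasts use the same WT libraries, so the counts are a description. KO2 alone differed from WT in 1100 rows (38.1%), and KO1 alone in 641 (22.2%). Both differed in the same direction in 552 (19.1%), of which 325 were further from WT in KO2 and 227 in KO1. Neither passed against WT in 435 (15.1%). The lines departed in opposite directions in 161 (5.57%), among them the rows over NEFM, SPARC, SLC7A11, EYA1 and RPS3A. Against WT, 23.6% of all rows were called in KO1 and 29.0% in KO2. Of the 161 rows with opposite departures, 158 are in the authors' deposited table, which sets all 4 knockout libraries against WT. There, 0 of them had a q-value under 0.05 by limma and 0 had a p-value under 0.05. These rows were chosen for opposite departures, which offset each other when the lines are pooled, so this count is no separate result. For AF106564.1 over NEFM the authors' deposited table gives a log2 fold change of −0.031 with a q-value of 0.993.

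**Figure D4:**
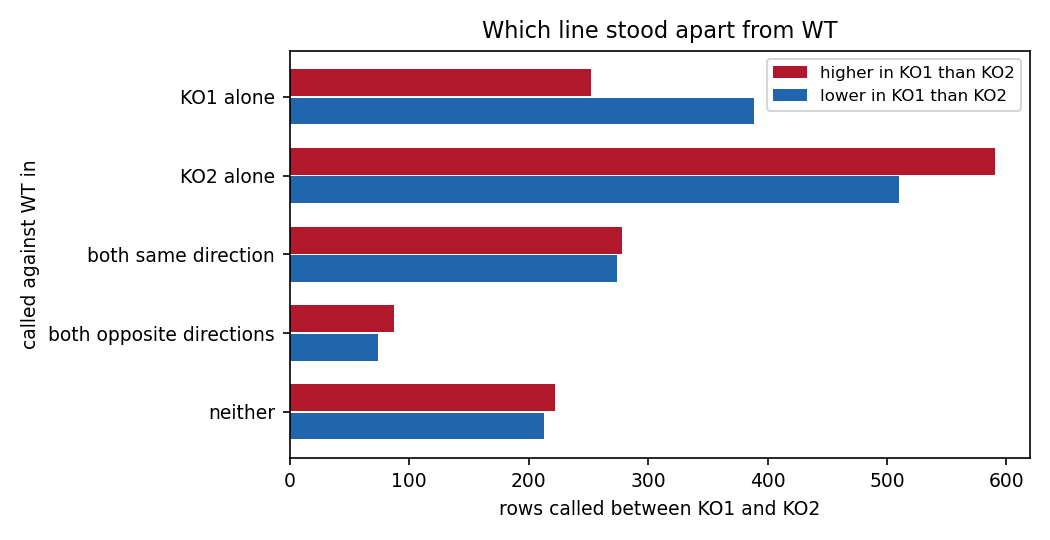
Number of rows called between KO1 and KO2 (horizontal axis), divided by whether each line was also called against WT (vertical axis), with red bars for rows higher in KO1 and blue bars for rows lower. KO2 alone is the largest class, with 590 rows higher and 510 lower in KO1.

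Many small differences ran together along chromosomes. On chromosome 7, 231 of 273 rows with a mean count of at least 50 were above 0, with a median of 0.43, and 151 were called higher in KO1 against 9 lower. On chromosome 14 the median was 0.37, with 124 called higher and 11 lower. In both, KO1 lay near WT (medians of −0.043 and 0.014) and KO2 below it (−0.46 and −0.42). On chromosome 22 the median was 0.27. Chromosome 4 changed along its length, with a median of −0.47 over 36 rows in the first 10 Mb and 0.51 over 78 rows beyond 95 Mb. There too KO1 was near WT (0.028 and 0.049) while KO2 was above it at the start (0.50) and below it at the end (−0.44). The rows over SLC7A11, RPS3A and H2AFZ lie beyond 95 Mb.

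Of 147 bins of 10 Mb, 26 (17.7%) had a median at least 0.25 from 0, 20 higher in KO1 and 6 lower. In the bin of chromosome 10 that holds VIM, 20 of 22 rows were called lower in KO1, with a median of −0.68, and both lines were below WT there (−1.0 in KO1 and −0.41 in KO2). On chromosome X from 150 Mb, 19 of 21 rows were called lower in KO1, with KO1 at 0.067 and KO2 at 0.67 against WT. Adjacent bins of chromosome 3 from 120 to 140 Mb were at −0.62 and −0.64, and there KO1 was below WT (−0.39 and −0.52). The first 10 Mb of chromosome 6 was the highest bin at 0.66, with KO1 above WT (0.45) and KO2 below (−0.24). The shifted bins held 572 of the called rows (19.8%) and 11.6% of the tested rows, and 122 of the 795 rows with at least 2-fold differences. With bin medians set to 0, 1399 of the 2137 called rows in bins with such a median were still called. The cause of the shifts was not tested.

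**Figure D5:**
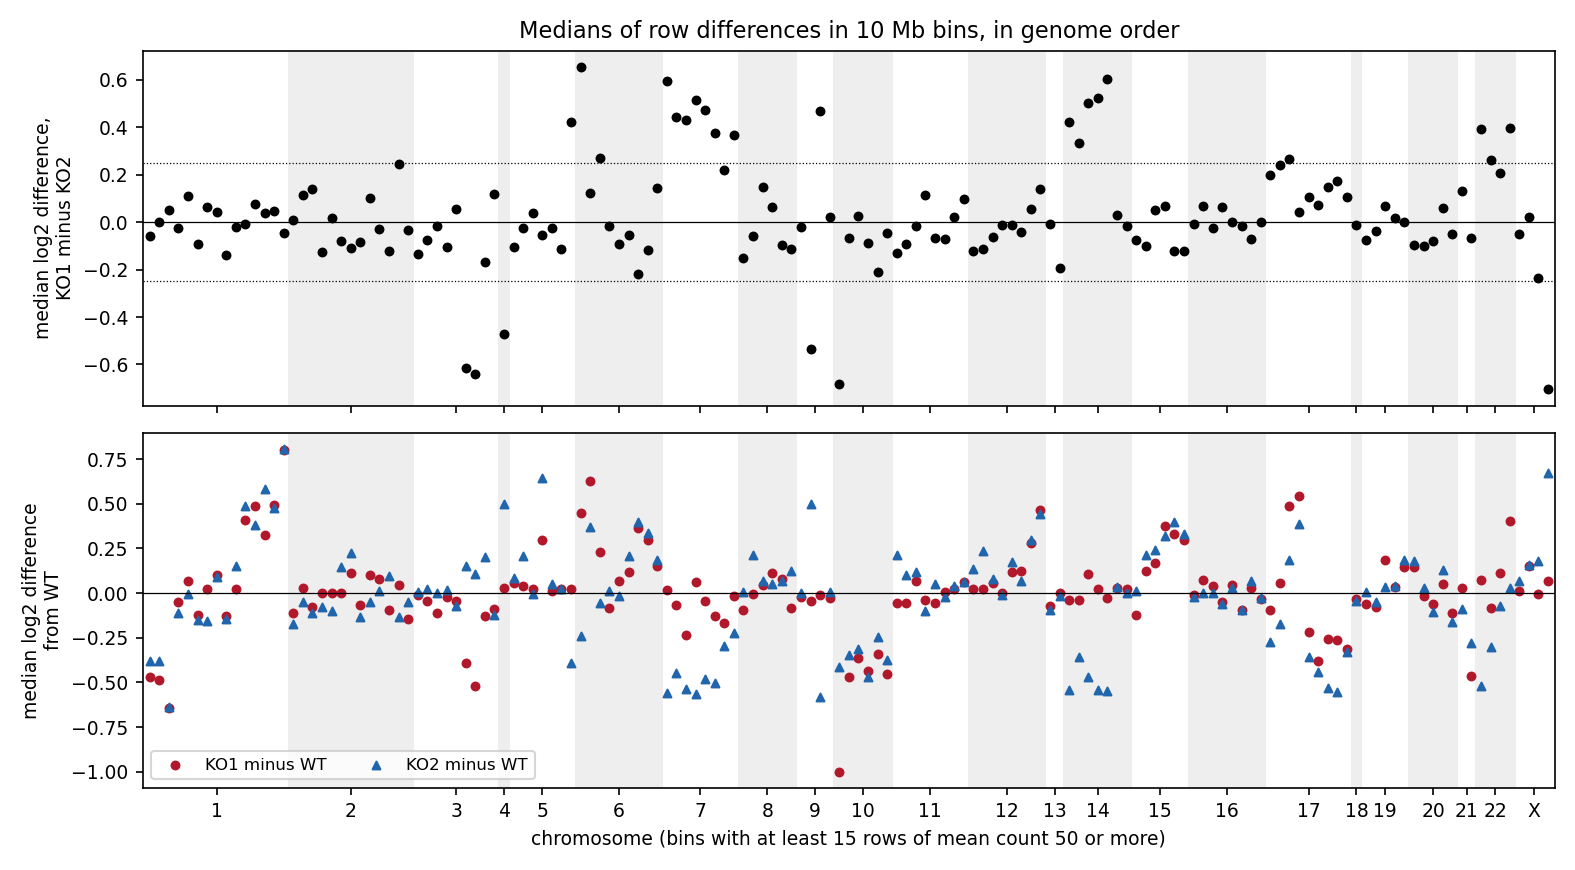
Medians of log2 differences in 147 bins of 10 Mb, in genome order. The upper panel gives KO1 minus KO2 with dotted lines at 0.25 and −0.25, and the lower panel gives KO1 (red circles) and KO2 (blue triangles) minus WT. Chromosomes 7 and 14 lie above the upper dotted line along most of their length, where KO2 is below WT.

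The strands of a locus did not always move together. Among 1265 pairs of rows on opposite strands, each with a mean count of at least 50, both rows were called in 212 pairs, 154 in the same and 58 in opposite directions. HNRNPU over COX20 was at 0.64 ± 0.07, with 2102 and 1826 reads in KO1 and 1409 and 1523 in KO2. COX20 over HNRNPU, an abundant nuclear RNA-binding protein, was at −0.25 ± 0.06, with 5858 and 4667 reads in KO1 against 7014 and 7457 in KO2. It was not called without KO1 replicate 2 (adjusted p = 0.0579). The rows over NEFM, VIM, KRT8 and KRT18 were pairs in which both strands were lower in KO1.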

How the data were processed

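Total RNA of HEK293T cells was sequenced in 6 libraries from a strand-keeping kit. Trim Galore, HTSeq 0.6.1p1, limma, STAR 2.7.1a and the builds hg38 and GRCh38.p6 are named, per the submitters' processing notes. Which annotation was used, and whether counting read the strand, is not given in the sources used here. The authors deposited raw counts (whole numbers, 59087 rows by symbol). The design text states more than 240 M reads, and totals here are those of the counts. The authors' deposited table of log2 fold changes, p-values and q-values was used only where named, and the authors' deposited FPKM values were not used.

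Members and gene lists were chosen with earlier results of these data known. Counts were tested with edgeR 4.0.16 in R 4.3.3 (quasi-likelihood F test, TMM scaling, filterByExpr), with all 6 libraries in 1 fit of 3 groups, 3 residual and 31.9 prior degrees of freedom and a biological coefficient of variation of 7.57%. P-values were Benjamini-Hochberg adjusted over 14184 rows and called under 0.05. They reflect the spread among these libraries alone, and that may be technical. The WT libraries helped estimate that spread. GENCODE v29 (GRCh38) gave positions by symbol, for 56239 rows directly and for 230 through another symbol, while 175 matched several genes and 2443 were not placed.

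Rows named with values came from a rule on called rows with a mean CPM of at least 1. It took the 12 highest and 12 lowest over 1 protein-coding gene, the 6 highest and 6 lowest other rows with a gene symbol, and the 5 most abundant in each direction. It added up to 3 members of each of 33 lists by smallest p, the 6 largest with opposite departures from WT, THUMPD2 and TRMT112. This gave 130 rows, and some of their values are not reported here. Other named rows were chosen after their values were seen, among them PNPLA4, GNAS-AS1, NEFL, INA, KRT8, KRT18, UNCX, EN1, the rows over GATA6, HHIP, VCAN and SLC27A2, and further list members. Where a line has no reads, the fold is given as a bound, with 3 counts summed over its libraries. Such bounds cover counting error only, and PCR copies were not told apart.

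Bins were 10 Mb wide and needed 15 rows whose mean count was at least 50. Alternatives were RLE and upper-quartile factors, other filters, the 4 knockout libraries alone, a replicate block, a 1.2-fold threshold, a 10 Mb bin offset, DESeq2 1.42.0, limma-voom in limma 3.58.1, and each library left out. Libraries thinned to the smallest total were added after seeing the data. On simulated counts of 14184 rows, 30 of 50 rows changed 1.5-fold were recovered, and all 50 of those changed 2-fold and 4-fold, with 10 false calls. The changed rows were drawn only from rows with an expected count of at least 50, and every row and group was given the same spread. Recovery in shallower rows was not tested.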

Additional observations from a re-analysis of the deposited data

Results flagged for a closer look

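The rows listed here stood on opposite sides of WT in the lines, each called against WT, and the difference between KO1 and KO2 was itself tested and called with edgeR. All the contrasts use the same WT libraries. Values are log2 differences of KO1 minus KO2.

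Lower in KO1 and higher in KO2 were the rows over NEFM (AF106564.1, −6.315) and NEFM itself (−5.133), with INA (−3.526) as a further filament gene. Other rows of this kind were OXCT1-AS1 over OXCT1 (−5.983), CLMAT3 over SPARC (−3.021), GNAS-AS1 (−4.44), C1orf147 over IKBKE (−3.745) and ATP8B4 over SLC27A2 (−2.368). GLIS3-AS1 over GLIS3, a pancreatic and renal transcription factor, was at −3.777 with 4 and 0 reads in KO1 and 29 and 38 in KO2. Smaller differences were KRT8 over KRT18 (−0.627), AC023593.1 over MCM2 (−0.622) and HSD17B6 over PRIM1, a primase subunit (−0.507). Of rows without reads in KO1, the fitted values depend on the prior count. They were −9.812 for AL139232.1 (116 and 127 reads in KO2, 28 and 24 in WT), −9.603 for AP000829.1 (103 and 107 in KO2, 6 and 5 in WT) and −7.182 for RIPPLY2, a somite gene (19 and 20 in KO2, 4 and 3 in WT). As bounds, these rows were at least 69.8-fold, 60.3-fold and 11.2-fold lower.

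Higher in KO1 and lower in KO2 were the rows over TEX19 (AC132938.4, 2.31), EYA1 (AC015687.1, 2.229) and SLC7A11 (SLC7A11-AS1, 2.009). Of the same list as SLC7A11 were the rows over SLC7A5 (AC126696.2, 0.787), CEBPB (CEBPB-AS1, 0.621) and MTHFD2 (AC006030.1, 0.618). The remaining rows were abundant, over RPS3A (SH3D19, 0.846), H2AFZ (AC097460.1, 0.785), TUBA1B (AC011603.2, 0.381), GAPDH (AC006064.4, 0.377) and PRPF31 (AC245052.4, 0.341).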

How the results depend on the processing

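The reported count of 2889 called rows (1429 higher in KO1, 1460 lower) was 2918 with RLE factors, 2961 with upper-quartile factors (1664 and 1297) and 2793 with limma-voom. Leaving out 1 library gave 2118 to 3007 calls, 1019 to 1465 of them higher in KO1 and 1086 to 1551 lower. It gave 223 to 255 rows at least 2-fold higher, 484 to 621 at least 2-fold lower, and 197 to 274 of the list members. The lone library left in a line was then assumed to vary like the others. A threshold of 1.2-fold gave 1545 calls (683 higher, 862 lower) and the 10 Mb bin offset 1626 (728 and 898), and DESeq2 gave 1737 with 751 lower. At least 2-fold, the reported 224 higher and 571 lower became 100 and 285 with at least 50 reads in 2 libraries, 86 and 337 with the bin offset, which tested 10473 rows, and 120 and 284 with DESeq2. Called list members, 259 as reported by either reading, were 130, 136 and 172 under the 1.2-fold threshold, the bin offset and DESeq2. With adjusted p under 0.01 in each contrast, KO1 alone held 424 rows, both in the same direction 302 and both in opposite directions 92. With the bin offset, 5 named rows reversed: AC245140.2 over RPL10 (0.405), SLIRP (−0.012), CABP7 (−0.004), SREBF2-AS1 (−0.065) and TXNRD2 (−0.011). Not all of the 158 called named rows had a value under every setting, and where there was one no other row reversed. With the bin offset, 81 rows kept the call and 21 lost it without reversing. The remaining rows, among them SLC7A11-AS1 and SH3D19 over RPS3A, were not tested with it. DESeq2 kept the call in 128 rows, ended it in 20 and gave the others no adjusted p. Shifted bins were 17.7% of bins, and 19.7% to 20.6% with other bin settings. Replicate numbers did not pair the libraries (correlation of deviations between KO1 and KO2 −0.0206 over 14184 rows), and the fit with a replicate block gave 2729 calls, 1354 higher and 1375 lower. Low depth limits the rows with a mean count under 50, where 7.61% were called.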
